A study of Mus musculus with 6 samples.

Results

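The genes described here are 10 growth cone and cytoskeleton genes of immature neurons, chosen by name from 24661 genes in the olfactory mucosa of RTP1,2DKO and wild-type mice. They are Gap43, Dcx, the stathmin genes Stmn1, Stmn2, Stmn3 and Stmn4, and Crmp1, Dpysl2, Dpysl3 and Dpysl5 of the collapsin response mediator protein (CRMP) family. RNA-Seq was performed on 3 wild-type mice and 3 RTP1,2DKO mice, all C57BL/6 and at post-natal day 21. RTP1,2DKO mice lack the coding sequence of both Rtp1 and Rtp2, each exchanged for a cassette in hybrid embryonic stem cells before the line was backcrossed, and wild-type mice carried neither exchange. The deletion was present in every cell, and the dissected mucosa held the olfactory epithelium (OE) with the tissue around it. Each sample was 1 mouse, and the methods describe sex-matched littermates.

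Olfactory sensory neurons (OSNs) are replaced throughout life from basal progenitors, and a newborn OSN extends an axon to the olfactory bulb before it expresses the proteins of odorant transduction. GAP43 is a phosphoprotein on the inner face of the growth cone membrane and a standard marker of the immature OSN. Doublecortin (Dcx) binds and stabilizes microtubules. Stathmins bind free tubulin and favour microtubule disassembly, and CRMPs are cytosolic phosphoproteins that act downstream of semaphorins and interact with tubulin and actin.

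The starts of the coding sequences show how the stathmins and GAP43 differ in their anchor to membranes, since cysteines near the amino end of GAP43 and of the neuronal stathmins carry the palmitate that holds these proteins on membranes. The first 75 coding bases (25 codons) of the GENCODE M21 principal transcript follow, 5′ to 3′, on GRCm38 (mm10). Capitals mark the start codon and every in-frame cysteine codon, and each stretch spans 2 exons, so the coordinates enclose an intron.
Gap43, chr16:42292322-42340502, minus strand: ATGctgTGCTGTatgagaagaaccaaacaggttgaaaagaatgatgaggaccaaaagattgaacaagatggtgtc
Stmn1, chr4:134470163-134470728, plus strand: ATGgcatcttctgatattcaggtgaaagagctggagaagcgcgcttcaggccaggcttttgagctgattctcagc
Stmn2, chr3:8509612-8541896, plus strand: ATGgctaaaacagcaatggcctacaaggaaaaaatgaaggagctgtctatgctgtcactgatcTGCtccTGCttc
Stmn3, chr2:181309187-181314212, minus strand: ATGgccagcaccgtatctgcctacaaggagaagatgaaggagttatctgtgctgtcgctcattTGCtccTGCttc
Stmn4, chr14:66354433-66355647, plus strand: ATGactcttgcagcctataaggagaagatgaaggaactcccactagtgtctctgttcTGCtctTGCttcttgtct
Gap43 has cysteine codons at positions 3 and 4, counted from 1 at the start codon. Stmn2 and Stmn3 have them at positions 22 and 24 and Stmn4 at positions 20 and 22, whereas Stmn1 has none in this window. The translated stathmins were 65.9% (Stmn3 and Stmn4) to 73.2% (Stmn2 and Stmn3) identical over aligned residues. The CRMPs Crmp1, Dpysl2 and Dpysl3 were 73.5% to 76.2% identical to each other, and Dpysl5 was 50.4% to 51.8% identical to them.

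Each library held 31125410 to 41636996 estimated counts. Rtp1 had 20522, 25301 and 13543 normalized counts in wild-type mice 1, 2 and 3 and 91, 85 and 109 in RTP1,2DKO mice 1, 2 and 3. Rtp2 had 7157 to 9510 normalized counts in wild-type and 26 to 58 in RTP1,2DKO mice, so the libraries followed their genotype labels. Normalized counts are estimated counts divided by the library's size factor, and mice are given below in the order 1, 2, 3. All 10 genes had counts in every mouse, from 649 to 16289 normalized counts.

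Of the 10 genes, Gap43 rose, Stmn4 fell and 8 did not pass the test. The test was edgeR's quasi-likelihood test with Benjamini-Hochberg adjustment over 22152 genes, and a gene was called at an adjusted p under 0.05. By that rule 3.61% of all genes tested were called, 0.46% as higher and 3.15% as lower in RTP1,2DKO. The median log2 fold change was 0.14 over the 10 genes and 0.02 over all genes tested, with 8 of the 10 above 0. With the length correction described below, the median of the 10 genes was 0.10, with 7 of the 10 above 0. In 5 of the 10 genes the groups did not overlap (Gap43, Stmn1, Stmn2 and Dpysl3 higher, Stmn4 lower), against 16.4% of all genes tested. Deviations of same-numbered mice from their group means were weakly correlated (0.103 to 0.179). Mice of different number were not compared in this way. With the replicate number as a block, 4 of the 10 genes passed (Gap43, Stmn1 and Dpysl3 higher, Stmn4 lower), against 4.57% of all genes. The DESeq2 Wald test called the same 4 genes, against 5.81% of the genes it tested. These are whole-tissue RNA levels, in which fewer cells of a type and less RNA per cell cannot be told apart.

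**Figure D1:**
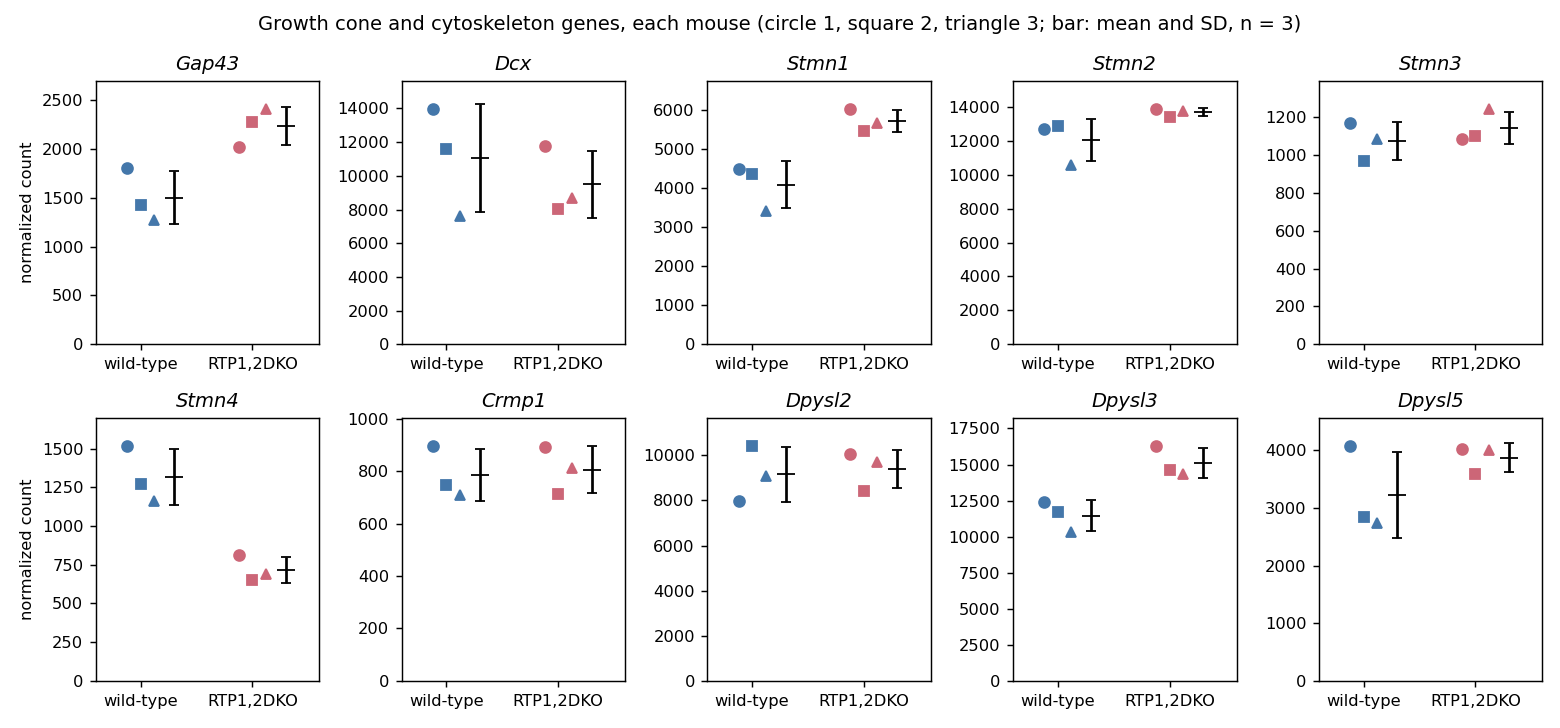
Normalized counts of the 10 genes (y axis, from 0) in each wild-type (blue) and RTP1,2DKO (red) mouse, with the mean and SD of 3 mice per group. Stmn4 lies at 649 to 812 in RTP1,2DKO and at 1164 to 1517 in wild-type mice, and Gap43 at 2026 to 2408 against 1275 to 1802.

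Gap43 had 1802, 1422 and 1275 normalized counts in the wild-type mice and 2026, 2282 and 2408 in the RTP1,2DKO mice. Every RTP1,2DKO mouse was above every wild-type mouse, and wild-type mouse 1 was the nearest to the mutants. The means were 1499 ± 272 (SD, n = 3) and 2239 ± 194 (SD, n = 3), a log2 fold change of 0.58 ± 0.14 (SE), or 1.49-fold (edgeR adjusted p = 0.0418). The call was close to the threshold. It was kept with the replicate block (adjusted p = 0.0338) and lost with a correction for transcript length (adjusted p = 0.164, with the block 0.108). It was also lost with library totals without the most abundant gene as the scale (adjusted p = 0.0667) and with the filterByExpr filter (adjusted p = 0.0514). The call was lost as well in 5 of the 6 fits that left out 1 mouse. Without wild-type mouse 2 the adjusted p was 0.128 and without wild-type mouse 3 it was 0.116. Without RTP1,2DKO mouse 1, 2 or 3 it was 0.0549, 0.123 and 0.171. The gene is on chromosome 16, as are Rtp1 and Rtp2, and lies 18.8 Mb from Rtp1.

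Gap43 was set against Omp, which encodes the olfactory marker protein of mature OSNs, within each mouse. The log2 ratio of Gap43 to Omp was -5.22, -5.40 and -5.72 in wild-type and -3.77, -4.01 and -4.04 in RTP1,2DKO mice. The groups did not overlap, and the ratio was 2.85-fold higher in RTP1,2DKO (log2 difference 1.51, exact two-sided permutation p = 0.1, the smallest that 3 against 3 mice allow). Because the groups did not overlap, the direction was necessarily the same within each pair of same-numbered mice. With Cnga2, a subunit of the cyclic nucleotide-gated channel, or Adcy3, the olfactory adenylyl cyclase, in place of Omp, the difference was 1.64 and 2.00. Both genes of the ratio moved: Omp fell from 60014 to 67308 normalized counts in wild-type to 27622 to 39605 in RTP1,2DKO mice (log2 fold change -0.90, edgeR adjusted p = 0.00297). Cnga2 and Adcy3 were likewise lower in every RTP1,2DKO mouse than in any wild-type mouse. With Gap43 higher in all of them, the lack of overlap and the permutation p of these ratios were fixed by the single genes. The ratios therefore add a size and no separate test.

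Dcx, the other widely used marker of immature neurons, did not rise. It had 13955, 11578 and 7616 normalized counts in wild-type and 11756, 8058 and 8665 in RTP1,2DKO mice. The groups overlapped, and the 3 wild-type mice spanned a wider range than the mutants. The log2 fold change was -0.22 ± 0.20 (SE, edgeR adjusted p = 0.78). The log2 ratio of Gap43 to Dcx, chosen after the values were seen, was -2.95, -3.03 and -2.58 in wild-type and -2.54, -1.82 and -1.85 in RTP1,2DKO mice. It was higher in every RTP1,2DKO mouse, with a difference of 0.78 (exact permutation p = 0.1). This ratio sets a transcript of 1316 bases against one of 8997 and was not corrected for the length trend described below. With the length correction the log2 fold change was 0.46 for Gap43 and -0.14 for Dcx.

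Of the 4 stathmin genes, Stmn4 fell and the other 3 did not pass the test without the block. Stmn1, the cytosolic stathmin that is also abundant in dividing cells, had 4501, 4360 and 3407 normalized counts in wild-type and 6023, 5467 and 5658 in RTP1,2DKO mice. All 3 RTP1,2DKO mice were above the wild-type range. The log2 fold change was 0.48 ± 0.13 (SE), which missed the threshold without the block (edgeR adjusted p = 0.0693) and passed with it (adjusted p = 0.0293), though not once the length correction described below was added to the block (adjusted p = 0.146). Stmn4, a stathmin with the cysteine anchor, had 1517, 1274 and 1164 normalized counts in wild-type and 812, 649 and 689 in RTP1,2DKO mice. All 3 RTP1,2DKO mice were below the wild-type range. The means were 1319 ± 181 and 717 ± 85.3 (SD, n = 3 each), and Stmn4 fell 1.84-fold (log2 fold change -0.88 ± 0.14 SE, edgeR adjusted p = 0.00281). It passed in each of the 14 alternative fits, the 6 that left out a mouse included, with adjusted p-values of up to 0.0153.

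Stmn2 and Stmn3, which share the anchor with Stmn4, did not fall with it. Stmn2, a growth-associated stathmin, had 12674, 12857 and 10590 normalized counts in wild-type and 13865, 13412 and 13790 in RTP1,2DKO mice. The groups did not overlap, but the gap was small and the log2 fold change was 0.19 ± 0.12 (SE, edgeR adjusted p = 0.654). Stmn3 had 1169, 970 and 1087 against 1087, 1101 and 1242 normalized counts. Its groups overlapped, with a log2 fold change of 0.09 ± 0.12 (SE, edgeR adjusted p = 0.869), and the length correction described below turned its sign (-0.05).

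Ratios within a mouse, chosen after the values were seen, compared the stathmins directly. The log2 ratio of Stmn1 to Stmn4 was 1.57, 1.78 and 1.55 in wild-type and 2.89, 3.07 and 3.04 in RTP1,2DKO mice. The difference was 1.37, or 2.58-fold, and the spread within each group was at most 0.13 (SD, n = 3, exact permutation p = 0.1, the smallest possible). The ratio of Stmn2 to Stmn4 differed by 1.07 (exact permutation p = 0.1). Stmn1 and Stmn2 were higher and Stmn4 lower in every RTP1,2DKO mouse than in any wild-type mouse. The lack of overlap and the permutation p of both ratios were therefore fixed by the single genes and are no separate test. By contrast, the log2 ratio of Stmn4 to Omp was -5.47, -5.56 and -5.85 in wild-type and -5.09, -5.82 and -5.85 in RTP1,2DKO mice. These groups overlapped, with a difference of 0.04 (exact permutation p = 0.8). Omp was the only mature OSN gene set against Stmn4. Its log2 fold change was -0.90, against -1.05 for Cnga2 and -1.41 for Adcy3. The 12 mature OSN markers listed below ranged from -2.00 to -0.75, with a median of -1.07. Ratios of Stmn4 to mature OSN genes other than Omp were not tested.

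**Figure D2:**
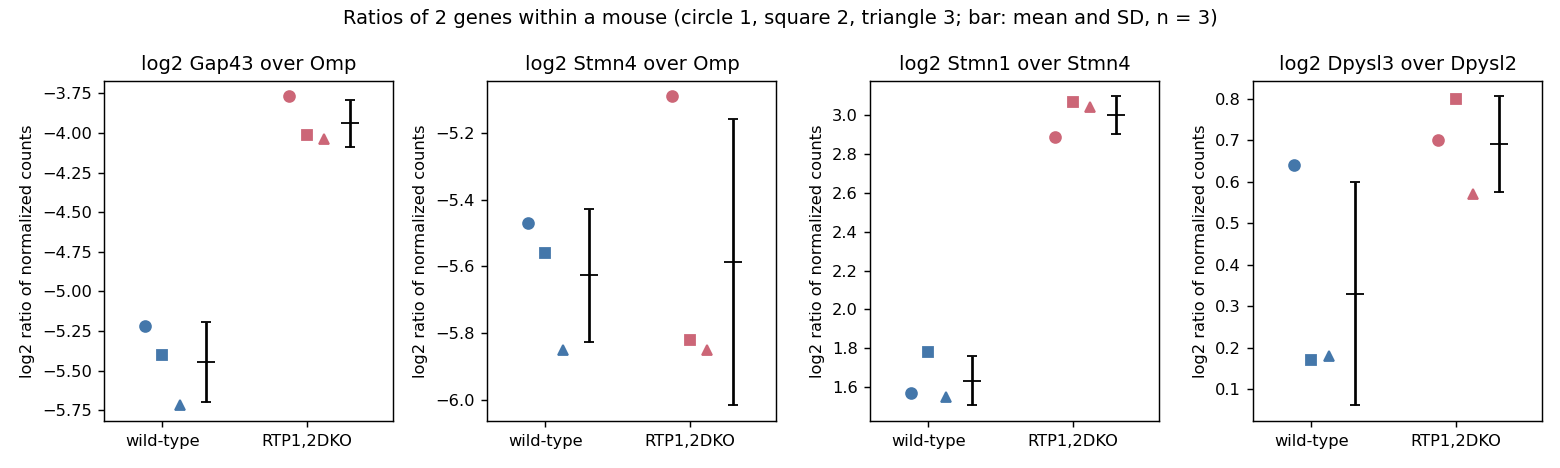
Log2 ratios of normalized counts of 2 genes (y axis, a scale of its own in each panel) in each wild-type (blue) and RTP1,2DKO (red) mouse, with the mean and SD of 3 mice per group. Gap43 over Omp and Stmn1 over Stmn4 are higher in every RTP1,2DKO mouse, and Stmn4 over Omp and Dpysl3 over Dpysl2 overlap between the groups.

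Among the CRMPs, Dpysl3 was the only one whose groups did not overlap. It had 12394, 11694 and 10307 normalized counts in wild-type and 16289, 14635 and 14366 in RTP1,2DKO mice. Each RTP1,2DKO mouse exceeded the wild-type range, with a log2 fold change of 0.40 ± 0.12 (SE, edgeR adjusted p = 0.126). The block brought it just past the threshold (adjusted p = 0.0497). Dpysl2, the most studied family member and a tubulin-binding protein, had 7964, 10413 and 9092 normalized counts in wild-type and 10060, 8430 and 9698 in RTP1,2DKO mice. The groups overlapped, with a log2 fold change of 0.04 ± 0.13 (SE, edgeR adjusted p = 0.961). The log2 ratio of Dpysl3 to Dpysl2, chosen after the values were seen, differed by 0.36 between the groups, which overlapped (exact permutation p = 0.2).

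Crmp1 was the least abundant of the 10 genes per length and had 896, 747 and 709 normalized counts in wild-type and 890, 712 and 812 in RTP1,2DKO mice. The groups covered nearly the same range (log2 fold change 0.04 ± 0.14 SE, edgeR adjusted p = 0.964). Dpysl5, the most divergent of these CRMPs in sequence, had 4073, 2840 and 2730 normalized counts in wild-type and 4020, 3586 and 4007 in RTP1,2DKO mice. Wild-type mouse 1 was at the level of the mutants, and the groups overlapped (log2 fold change 0.27 ± 0.15 SE, edgeR adjusted p = 0.578). The signs of Crmp1 and Dpysl2 turned in 2 fits each that left out a mouse.

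**Figure D3:**
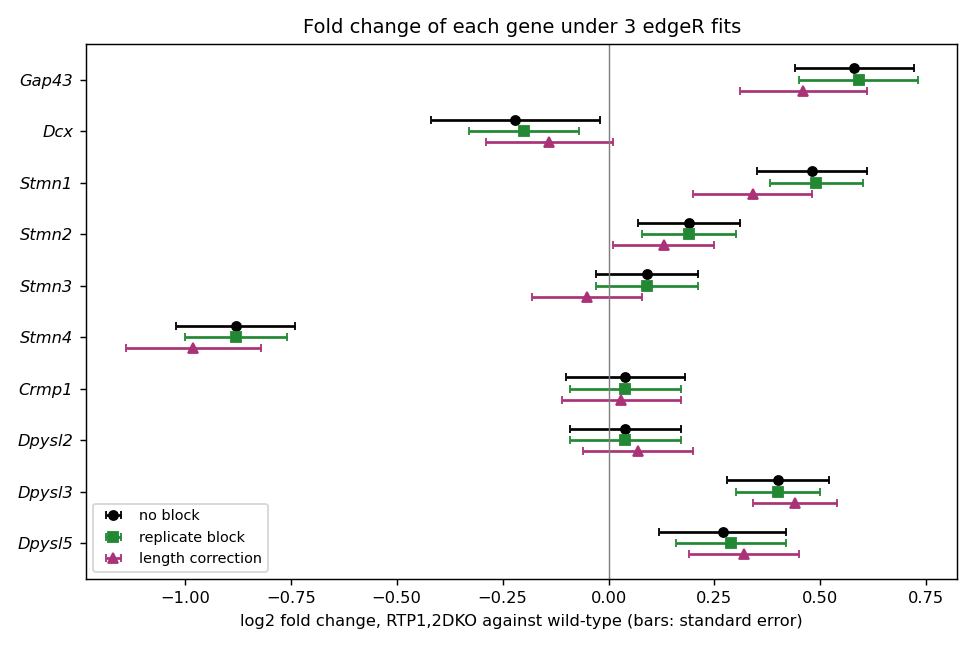
Log2 fold change of each gene in RTP1,2DKO against wild-type (x axis) with its standard error, from edgeR without a block (black), with the replicate block (green) and with the length correction (purple). Stmn4 lies between -0.98 and -0.88 in these fits, and Gap43 between 0.46 and 0.59.

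The mice differed in how counts followed transcript length, with wild-type mouse 1 at one end and RTP1,2DKO mice 2 and 3 at the other. For transcripts under 1500 bases the median log2 deviation from a gene's mean over the 6 mice was -0.20 in wild-type mouse 1, and 0.10 and 0.12 in RTP1,2DKO mice 2 and 3. For transcripts over 6000 bases it was 0.17 in wild-type mouse 1 and -0.10 and -0.06 in those RTP1,2DKO mice. The median log2 fold change over genes with a mean of at least 100 normalized counts was 0.14 for the shortest class and -0.05 for the longest. Gap43 (1316 bases), Stmn1 (1070 bases), Stmn3 (1136 bases) and Stmn4 (1341 bases) are in the shortest class and Dcx (8997 bases) is in the longest. With a correction for this trend, added after the data were seen, the log2 fold change of Gap43 was 0.46 (edgeR adjusted p = 0.164) and that of Stmn1 was 0.34 (adjusted p = 0.365). With the block as well these were 0.49 (adjusted p = 0.108) and 0.36 (adjusted p = 0.146). Gap43 therefore lost its call, and Stmn1 lost the one it had with the block alone. Stmn4 was at -0.98 (adjusted p = 0.00348), and Dpysl3 (5258 bases) was at 0.44 and was called (adjusted p = 0.0283). The correction called 2 of the 10 genes, against 3.72% of all genes tested.

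**Figure D4:**
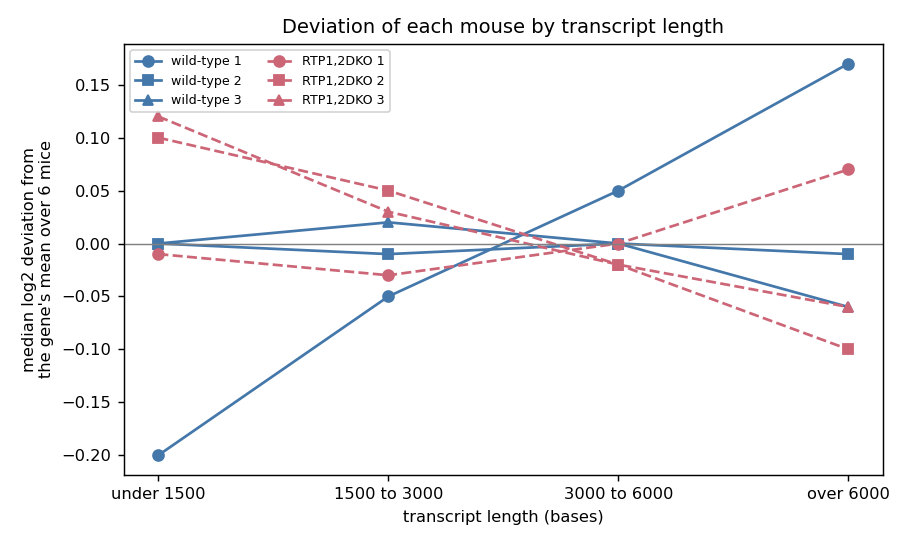
Median log2 deviation of each mouse from a gene's mean over 6 mice (y axis) in 4 classes of transcript length in bases (x axis), wild-type in blue with solid lines and RTP1,2DKO in red with dashed lines. Wild-type mouse 1 runs from -0.20 for the shortest to 0.17 for the longest class, and RTP1,2DKO mouse 3 from 0.12 to -0.06.

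Levels of different genes were compared per length, as FPKM, which scales a count by the effective transcript length and the library total. In wild-type mice Stmn2 (259 ± 46.5 FPKM, SD, n = 3) and Stmn1 (231 ± 48.4) were highest and overlapped. Dpysl3 (70.6 ± 10.8), Dpysl2 (68.2, from 58.4 to 84.2), Gap43 (57.1 ± 11.7), Stmn3 (53.4 ± 3.91), Stmn4 (48.6 ± 7.95), Dcx (38.1 ± 12.4) and Dpysl5 (20.5 ± 4.88) followed, each overlapping the next. Crmp1 (9.39 ± 1.42) was lowest and stood apart. In RTP1,2DKO mice Stmn1 (314 ± 37.1) and Stmn2 (287 ± 23.4) were highest, and their ranges over mice again overlapped. Within a mouse their order differed between the groups. Stmn2 was above Stmn1 in each wild-type mouse (268.5 and 250.1, 300.4 and 267.2, 208.8 and 176.2 FPKM). Stmn1 was above Stmn2 in each RTP1,2DKO mouse (357.2 and 313.6, 292.9 and 274.0, 292.9 and 272.2 FPKM). Gap43 (82.8 ± 1.51) now stood above Dpysl2 (68.2 ± 9.72) and Stmn3 (55.5 ± 2.75) without overlap, and Stmn4 (25.9 ± 4.86) was below Stmn3 without overlap. These positions describe levels and were not tested.

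Several features of the annotation bear on single genes. Of the 31-base words in Stmn1 transcripts, 77.6% were found in no other GENCODE gene. Whether its remaining words are shared in the transcript set the authors counted on was not examined. For the other 9 genes at least 98.6% of the words were unique. Crmp1 overlaps Evc on the opposite strand, which had 95.1 to 149 normalized counts. The files divide 4 of the genes into more than 1 transcript, and 12 transcript shares were compared. For Stmn4, its main transcript held 76.7%, 84.7% and 89.8% of the gene's estimated counts in wild-type and 80.4%, 90.0% and 77.7% in RTP1,2DKO mice, with overlapping groups (exact permutation p = 1.0). For Dcx the shares varied widely between mice of 1 group, as with 13.0% to 47.1% for 1 transcript in wild-type mice. The groups overlapped in all 12 shares, with exact permutation p-values of 0.2 or more.

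Of 22 genes that work beside the 10 in growth cones and on microtubules, none passed the edgeR test without the block, with a median log2 fold change of 0.14, while 6 had an unadjusted p under 0.05 and DESeq2 called 3. Map1b, a microtubule-associated protein gene, was at -0.25 (adjusted p = 0.657) and Tuba1a, an alpha tubulin gene, at -0.12 (adjusted p = 0.827). With the block 2 passed, named after their values were seen: Basp1, which encodes a growth cone membrane protein (log2 fold change 0.43, adjusted p = 0.0649 without and 0.0361 with the block), and the beta tubulin gene Tubb2b (0.47, adjusted p = 0.114 and 0.0444). Of 13 semaphorin receptors, ligands and effectors, 4 fell and none rose, with a median log2 fold change of -0.01. Those that fell were Sema7a, a membrane-anchored semaphorin (-1.43, edgeR adjusted p = 0.000198), the plexins Plxna3 (-1.04, adjusted p = 0.00023) and Plxna4 (-0.69, adjusted p = 0.012), and the co-receptor Nrp1 (-0.62, adjusted p = 0.00766). CRMPs are classically placed in the response to class 3 semaphorins, and Sema3a itself was at 0.22 (adjusted p = 0.682).

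Lists of cell type markers were examined in the same libraries. Of 12 mature OSN markers 11 fell and Gng13 did not pass (-0.76, edgeR adjusted p = 0.0857), with a median log2 fold change of -1.07. They included Stoml3 (-2.00), Adcy3 (-1.41), Cnga4 (-1.18) and Ano2 (-1.18). Their summed normalized counts were 151275 to 162847 in wild-type and 69712 to 78763 in RTP1,2DKO mice, so they moved in the same direction as Stmn4. Of 12 immature OSN markers, 2 rose: Gng8, a G protein gamma subunit gene (0.91, adjusted p = 0.0104), and the transcription factor gene Nhlh2 (0.65, adjusted p = 0.0145). With the length correction Gng8 (920 bases) lost its call (adjusted p = 0.0659). The median was 0.39, and the sums were 71609 to 88420 and 89824 to 100570 normalized counts. Of 8 progenitor markers, only Hes6 passed (0.75, adjusted p = 0.00887), and the median was 0.53. The groups did not overlap in any of the 8, whereas 16.4% of all genes tested had no overlap. With the block 3 passed, the others, named after their values were seen, being Top2a (adjusted p = 0.099 without and 0.0154 with the block) and Insm1 (adjusted p = 0.0891 and 0.0244). Their sums were 7540 to 9306 in wild-type and 11295 to 13714 in RTP1,2DKO mice. Of the 10 genes, 8 also had a log2 fold change above 0, but only Gap43 was called higher without the block. Dcx (-0.22) and Stmn4 (-0.88) were below 0. The part of these cell types in the values of the 10 genes was not tested.

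Markers of cells outside the OSN lineage mostly did not pass. None of 4 horizontal basal cell, 5 sustentacular, 8 glial, 6 vomeronasal neuron or 8 blood, muscle and connective tissue markers passed the edgeR test, with medians of -0.10 to 0.14. Of these 31 genes 5 had an unadjusted p under 0.05 and DESeq2 called 1, Hbb-bs. This adult beta globin gene was at 0.76 (edgeR adjusted p = 0.0844, DESeq2 adjusted p = 0.00468) and Col1a1, a collagen gene, at 0.13 (adjusted p = 0.84). The summed vomeronasal neuron markers were 18088 to 21220 in wild-type and 20359 to 21318 in RTP1,2DKO mice in normalized counts. Gnao1 (7842 to 9996 normalized counts over all mice) and Tenm4 (3727 to 5466) made up most of these sums. Gnao1 was at -0.12 (adjusted p = 0.811) and Tenm4 at 0.23 (adjusted p = 0.639). In 2 of the 6 genes the groups did not overlap, against 16.4% of all genes tested. Named after their values were seen, these were Trpc2 (0.46, adjusted p = 0.122) and Gnai2 (0.29, adjusted p = 0.322). Trpc2 had 1024 to 1304 normalized counts in wild-type and 1401 to 1844 in RTP1,2DKO mice. Among 10 olfactory bulb neuron markers Gad1, which encodes a GABA-synthesizing enzyme, fell (-1.18, adjusted p = 0.0167), from 185 to 379 normalized counts in wild-type to 119 to 140 in RTP1,2DKO mice. The list's median was -0.79, with 4 of its 10 genes above 0, while its sums were 5915 to 6773 in wild-type and 7442 to 8807 in RTP1,2DKO mice. Named after their values were seen, the genes above 0 were Dlx5 (0.49, adjusted p = 0.0597, with the block 0.045), Calb2 (0.43, adjusted p = 0.148), Tbr1 (0.58, adjusted p = 0.628) and Gad2 (0.22, adjusted p = 0.712). Calb2 (3318 to 5676 normalized counts over all mice) and Dlx5 (1407 to 2433) made up most of the list's sums. Which cells held the RNA of Calb2 and Dlx5, in the bulb or in the mucosa, was not tested. The transmitter transporter genes Slc32a1 and Slc17a7, also on that list, were under 50 normalized counts in every mouse.

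**Figure D5:**
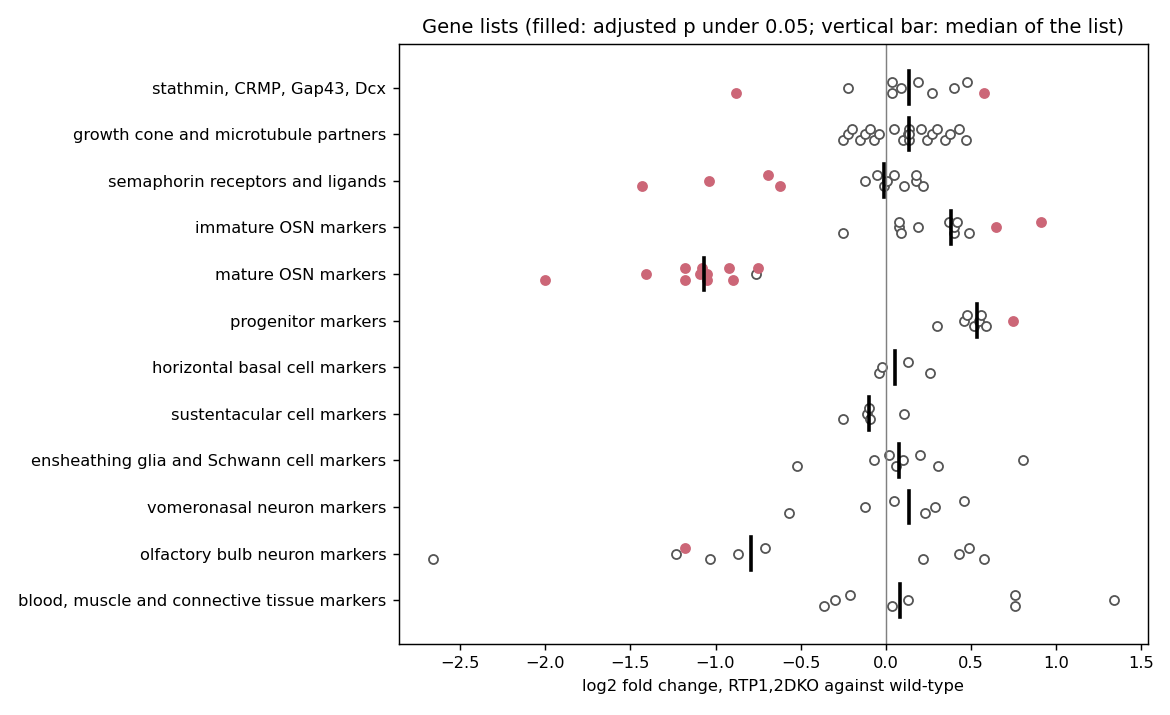
Log2 fold change in RTP1,2DKO against wild-type (x axis) of each gene in 12 lists, filled where the edgeR adjusted p was under 0.05, with a vertical bar at each list's median. The 10 genes range from -0.88 to 0.58 around a median of 0.14, and the medians are -1.07 for mature OSN markers, 0.39 for immature OSN markers and 0.53 for progenitor markers.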

How the data were processed

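RNA-Seq libraries of dissected mucosa were made with a stranded kit, per the labels from KAPA and per the methods from Illumina, and sequenced on HiSeq. The authors ran kallisto against UCSC mouse transcripts (mm10) with extended odorant receptor annotations and deposited estimated counts and TPM for 38041 transcripts per mouse. The kallisto version and strand setting are not given in the sources used here. Estimated counts were summed to genes by transcript name and rounded to whole numbers. Any gene that reached 1 count in at least a single library was tested with edgeR 4.0.16 (R 4.3.3, quasi-likelihood), with size factors from DESeq2 1.42.0. The study's methods name edgeR with DESeq size factors and do not state which edgeR test was used. Deposited TPM served only for alternatives, and FPKM was computed from the estimated counts. Ratios and shares were compared by exact two-sided permutation tests, with no adjustment over them. Positions and sequences are from GENCODE M21, a different transcript set than the authors counted on.

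The methods name sex-matched littermates, but the labels do not say that a number marks a litter. Deviations of same-numbered mice from their group means were compared over 18133 genes (mean of at least 10 normalized counts). Their correlations were weak, at 0.139, 0.179 and 0.103, and none was computed for mice of different number. The replicate number was also fitted as a block, and whether it marks littermates was not tested. The length correction subtracts from each library a smooth trend of its deviations on log transcript length and was chosen after the data were seen.

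The 10 genes and the gene lists were chosen with earlier results of these data known. Every one of the 10 genes is named, and Rtp1, Rtp2, Omp, Cnga2 and Adcy3 with them. From each list at most 4 genes past the threshold with the largest change are named, and where none passed at most 2 with the highest mean. Genes outside this rule are named as chosen after their values were seen, or as the exception to a count, or, for Sema3a, Slc32a1 and Slc17a7, for their role.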

Additional observations from a re-analysis of the deposited data

How the results depend on the processing

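Stmn4 kept its direction and its call in all 14 alternative fits. The count of the 10 genes past the threshold was 2 and was 1 with library totals without the most abundant gene as the scale, 1 with edgeR's filterByExpr, 4 with DESeq2 and 4 with the replicate block. Genes called higher were 0, 0, 3 and 3 in that order, against 1. Leaving out 1 mouse gave 1 to 3 genes past the threshold, of which 0 to 2 were higher. Gap43 was lost with the library totals without the most abundant gene (adjusted p = 0.0667) and with filterByExpr (0.0514), which tests fewer genes. The replicate block changed the call of Stmn1 and Dpysl3 and of no other of the 10 genes, and raised the genes past the threshold from 0 to 2 among growth cone partners, from 1 to 3 among progenitor markers and from 1 to 2 among olfactory bulb markers. Signs turned for Stmn3 with the length correction (-0.05, with the block -0.04), for Crmp1 without wild-type mouse 3 or RTP1,2DKO mouse 1 (-0.04 to 0.15 over the 6 fits that left out a mouse), and for Dpysl2 without wild-type mouse 1 or RTP1,2DKO mouse 1 (-0.05 to 0.14). The cause was not tested. The Gap43 to Omp difference was 1.37 to 1.62 with 1 mouse left out. With the replicate block it was 1.51 (exact sign-flip p = 0.25, the smallest 3 pairs allow). Because the groups did not overlap, neither change could turn its sign. The lowest estimated count of the 10 genes in any mouse was 643, and the number of mice limits the precision.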
